A study of Mus musculus with 9 samples.

Results

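The ephrin ligands are the cell-surface partners of the Eph receptor tyrosine kinases. Their 8 mouse genes, Efna1 to Efna5 and Efnb1 to Efnb3, were found by symbol among the 21210 genes of the deposited table, and all 8 were present and passed the filter on low values. They were followed through 3 cell populations of the embryonic mouse brain, sorted at embryonic day 14.5 from lateral cortex (strain C57BL/6), with 3 libraries of poly-A RNA in each population. Proliferating progenitors were the cells without the Btg2 reporter, differentiating progenitors were the cells with it, and neurons were the cells with the Tubb3 reporter. Btg2 is an antiproliferative gene switched on in progenitors about to produce neurons, and Tubb3 is a neuronal tubulin. All cells carried both reporters (genotype label Btg2GFP/Tubb3GFP), in every group, and the titles name the Btg2 gate as RFP and the Tubb3 gate as GFP. Each library pooled sorted cells of several embryos from different litters, after removal of meninges and ganglionic eminences, so a reporter and a gate, not a single cell type, define each group.

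Ephrins act between touching cells. Ephrin-A proteins are held in the membrane by a lipid anchor and bind mainly EphA receptors, while ephrin-B proteins span the membrane and bind mainly EphB receptors. Binding starts forward signalling in the receptor-bearing cell and reverse signalling in the ligand-bearing cell. In the developing brain the family is known for repelling axons and migrating neurons, for mapping axons onto their targets and, in the case of ephrin-B1, for keeping cortical progenitors in the ventricular zone.

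The deposited values are normalised read counts rounded to whole numbers, and their sum per library ran from 17531558 to 22076409. A gene was called higher or lower where limma, fitted to log2(value + 1) of all 15828 genes that passed the filter, gave a Benjamini-Hochberg adjusted p under 0.05. Log2 changes below are on that scale, which understates the change of genes with low values, and those from the values as deposited are given with their SE. Btg2 was higher in each differentiating progenitor library (14022 to 19983) than in any proliferating progenitor library (7032 to 9336) or neuron library (2645 to 3390), and Tubb3 rose from 1158 to 2511 through 9711 to 13097 to 39932 to 50230, in the order the labels give. Summed markers of radial glia fell from 110586 to 129742 in proliferating progenitors to 6244 to 7605 in neurons, and those of intermediate progenitors were highest in differentiating progenitors. The reporters of Btg2 and Tubb3 set the gates, so the order of these genes over the populations follows at least in part from the sort. The intermediate progenitor list includes Btg2, so part of its sum follows from the sort too. In these bulk populations, fewer cells of a type and less RNA per cell cannot be told apart.

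Between proliferating and differentiating progenitors, Efna3 and Efna4 rose, Efnb1 fell, and the other 5 ligands were not called. In that comparison 24.9% of all tested genes were called, 13.8% higher and 11.1% lower. From differentiating progenitors to neurons, Efna3, Efnb2 and Efnb3 rose and Efnb1 fell, against 54.0% of tested genes called, 27.6% higher and 26.4% lower. Between proliferating progenitors and neurons, Efna2, Efna3, Efna4, Efnb2 and Efnb3 were higher in neurons and Efnb1 was lower, against 63.3% of tested genes called, 32.2% higher and 31.1% lower. Calls were therefore common among all genes, and the number of called ligands alone does not set the family apart. The median log2 change of the 8 ligands was 0.14, 0.22 and 0.53 in the 3 comparisons, beside -0.02, -0.01 and -0.02 for all tested genes.

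**Figure D1:**
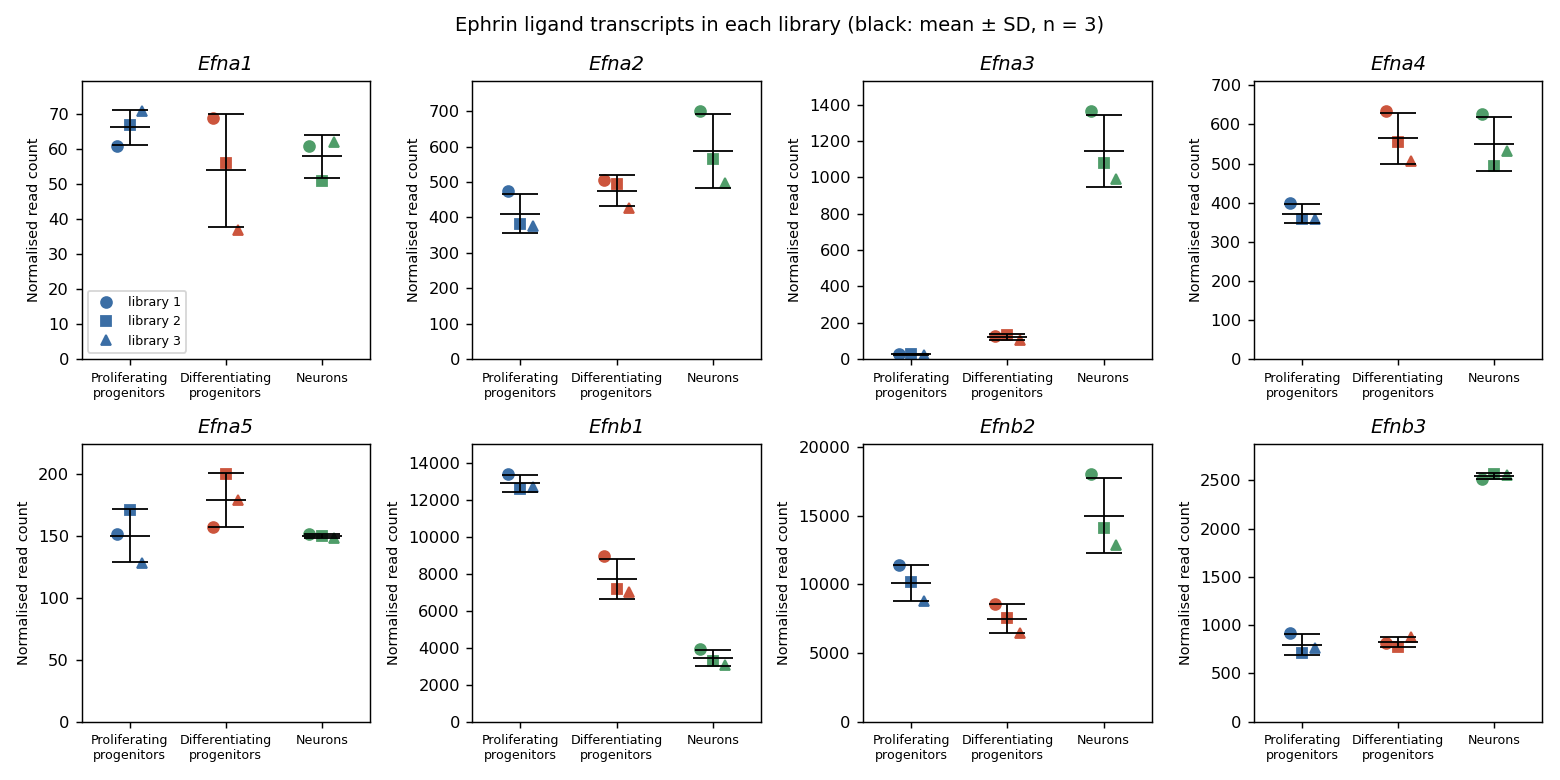
Normalised read count (vertical axes, linear and starting at 0) of the 8 ephrin ligand genes in each of the 9 libraries, by population, with points for libraries and bars for the mean and SD. Efna3 climbs from 23 to 29 in proliferating progenitors to 991 to 1367 in neurons, and Efnb1 falls from 12564 to 13419 to 3092 to 3909.

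Among the ephrin-A genes, Efna3 had the widest range. It encodes a lipid-anchored ligand of EphA receptors. Its normalised read count was 29, 26 and 23 in the 3 libraries of proliferating progenitors, 127, 131 and 103 in differentiating progenitors, then 1367, 1077 and 991 in neurons. The 3 populations did not overlap at either step. The group means were 26.0 ± 3.00, 120.3 ± 15.1 and 1145 ± 197 (SD, n = 3 each), 4.63-fold higher at the first step, 9.52-fold higher at the second and 44.0-fold higher from end to end. By limma the log2 changes were 2.17 ± 0.18 (adjusted p = 5.95e-05), 3.23 ± 0.18 (adjusted p = 5.81e-07) and 5.40 ± 0.18 (adjusted p = 2.55e-08). Called higher at both steps were 8.12% of tested genes, and Efna3 was the only ligand among them. In the authors' deposited table the folds of Efna3 are 4.63, 9.5 and 43.96, with adjusted p-values of 4.2e-08, 2.6e-19 and 2.8e-41.

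Efna4, another lipid-anchored ligand, rose at the first step only. Its libraries held 400, 357 and 359 in proliferating progenitors, 635, 554 and 506 in differentiating progenitors, then 626, 493 and 532 in neurons. Every differentiating progenitor and neuron library lay above every proliferating progenitor library, and those 2 higher populations overlapped. The log2 change was 0.60 ± 0.13 at the first step (limma, adjusted p = 0.00894), -0.04 ± 0.13 at the second (adjusted p = 0.831) and 0.56 ± 0.13 from end to end (adjusted p = 0.00397). With each library scaled to the same total, the end-to-end change was 0.27 and was no longer called (adjusted p = 0.106). Such a rise followed by no call was found for 3.49% of tested genes.

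Efna2, a ligand known from the mapping of retinal axons, changed in smaller amounts. Its normalised read counts were 475, 382 and 376 in proliferating progenitors, 506, 495 and 426 in differentiating progenitors, then 701, 564 and 497 in neurons. Neurons lay above proliferating progenitors without overlap, whereas neighbouring populations overlapped. The end-to-end log2 change was 0.51 ± 0.15 (limma, adjusted p = 0.0171), and the steps were 0.21 ± 0.15 (adjusted p = 0.381) and 0.29 ± 0.15 (adjusted p = 0.143). With the replicate number as a block, the step into neurons was called as well (adjusted p = 0.00962). The end-to-end call was lost when each library was scaled to its total (0.22, adjusted p = 0.246) or to its upper quartile (0.38, adjusted p = 0.0847). It was also lost without replicate 2 (adjusted p = 0.0587) or replicate 3 (adjusted p = 0.0596) of the proliferating progenitors, or without replicate 1 of the neurons (0.37, adjusted p = 0.0573).

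Efna5 and Efna1 were called in none of the 3 comparisons. Efna5, known for its part in placing thalamic axons in the cortex, held 151, 171 and 128 in proliferating progenitors, 157, 200 and 179 in differentiating progenitors, then 151, 150 and 148 in neurons. All 3 differentiating progenitor libraries lay above all 3 neuron libraries, with a log2 change of -0.25 ± 0.15 (limma, adjusted p = 0.213). That change was -0.46 and called lower (adjusted p = 0.0244) with libraries scaled to their totals. Its other changes were 0.25 ± 0.15 (adjusted p = 0.29) and 0.01 ± 0.15 (adjusted p = 0.977).

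Efna1, which encodes a ligand of EphA2 known from blood vessels, held 61, 67 and 71 in proliferating progenitors, 69, 56 and 37 in differentiating progenitors, then 61, 51 and 62 in neurons. The 3 populations overlapped. Its log2 changes were -0.33 ± 0.24, 0.14 ± 0.24 and -0.19 ± 0.24 (limma, adjusted p = 0.388, 0.67 and 0.525). An estimated 38 to 87 reads per library lay behind these values. With an SE of 0.24 small changes could be missed, and the part of read depth in that SE was not tested.

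Efnb1 was the ligand that fell at both steps. It encodes ephrin-B1, a transmembrane ligand on the X chromosome that is known to act in cortical progenitors. Its normalised read count was 13419, 12564 and 12685 in proliferating progenitors, 8948, 7162 and 6991 in differentiating progenitors, then 3909, 3295 and 3092 in neurons. No 2 populations overlapped. The means were 12889.3 ± 463, 7700.3 ± 1083.9 and 3432 ± 425 (SD, n = 3 each), 1.67-fold lower at the first step and 2.24-fold lower at the second. The log2 changes were -0.75 ± 0.12 (limma, adjusted p = 0.00196), -1.16 ± 0.12 (adjusted p = 3.29e-05) and, from end to end, -1.92 ± 0.12 (adjusted p = 8.18e-07), a 3.76-fold difference. Lower calls at both steps were made for 5.7% of tested genes.

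Efnb2, whose transmembrane product is known in arteries and in migrating neurons, had its lowest mean in differentiating progenitors. Its libraries held 11416, 10166 and 8771 in proliferating progenitors, 8553, 7555 and 6430 in differentiating progenitors, then 18077, 14105 and 12867 in neurons. The 3 populations did not overlap. The first step was -0.43 ± 0.16 and was not called (limma, adjusted p = 0.0816), although it was called lower with the replicate number as a block (adjusted p = 8.26e-05). The same fall was called with libraries scaled to their totals (-0.50, adjusted p = 0.0467), with replicates 2 and 3 alone (-0.44, adjusted p = 0.0189) and without replicate 1 of the neurons (adjusted p = 0.0478). The step into neurons was a 2.00-fold rise, a log2 change of 0.99 ± 0.16 (adjusted p = 0.000574). From end to end the change was 0.56 ± 0.16 (adjusted p = 0.0118), and that call was lost with libraries scaled to their totals (0.27, adjusted p = 0.16) or to their upper quartiles (0.43, adjusted p = 0.058).

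Efnb3, whose product is known as a midline barrier to corticospinal axons, changed at the step into neurons. Its normalised read count was 919, 710 and 762 in proliferating progenitors, 819, 774 and 881 in differentiating progenitors, then 2516, 2571 and 2554 in neurons. The progenitor populations overlapped and the neuron libraries stood above them. Its log2 changes were 0.06 ± 0.11 (limma, adjusted p = 0.791), 1.63 ± 0.11 (adjusted p = 1.69e-06, 3.09-fold) and 1.68 ± 0.11 (adjusted p = 8.53e-07, 3.20-fold). No call followed by a rise into neurons was found for 17.0% of tested genes in the main fit, and Efnb2 and Efnb3 were in that class. Efnb2 leaves it in the alternatives, given above, that called its first step lower.

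**Figure D2:**
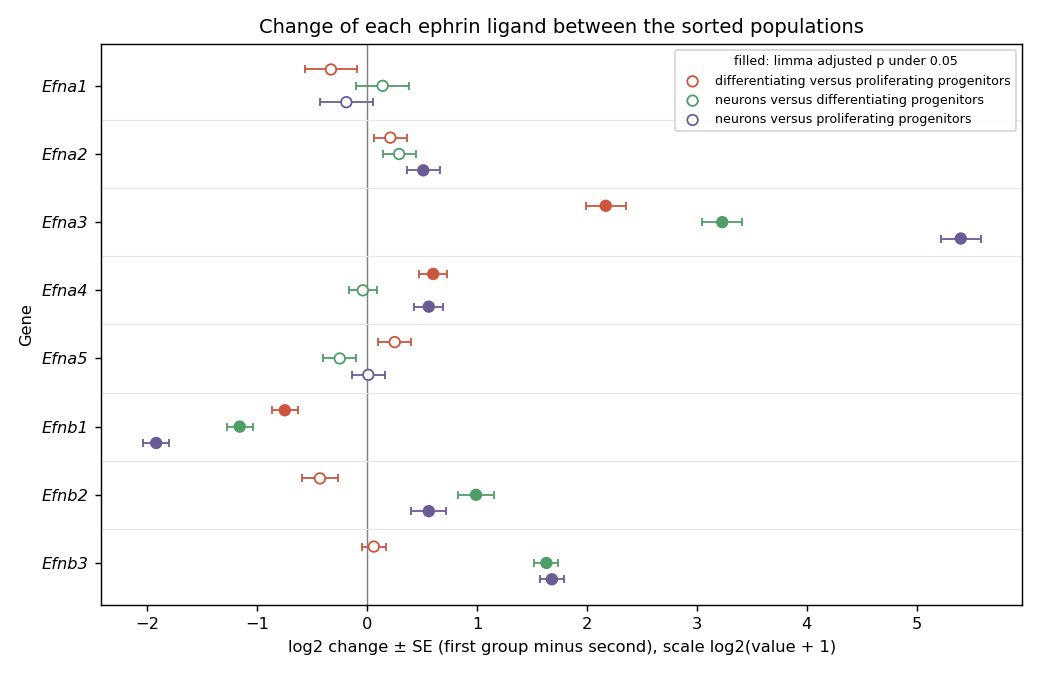
Log2 change of each ephrin ligand (horizontal axis, log2 of value + 1) in the 3 comparisons, with bars for the SE and filled symbols for calls at an adjusted p under 0.05. Efna3 lies farthest to the right at 2.17, 3.23 and 5.40, and Efnb1 farthest to the left at -0.75, -1.16 and -1.92.

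Of the 24 ligand comparisons, 13 were called, 10 higher and 3 lower, and the authors' deposited table has an adjusted p under 0.05 for the same 13. By comparison, 3, 4 and 6 of the 8 ligands were called, beside 24.9%, 54.0% and 63.3% of all tested genes. The end-to-end comparison spans both steps, so the 24 are not separate results. The libraries of the groups compared did not overlap for 4, 5 and 6 of the 8 ligands in the 3 comparisons. Among all tested genes the same was true of 37.7%, 60.7% and 67.6%, made up of 18.9%, 31.2% and 34.1% higher and 18.8%, 29.5% and 33.5% lower.

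Levels of different ligands were compared per kilobase of the gene length in the deposited table. In proliferating progenitors Efnb1 stood first, at 3733.9 ± 134 normalised reads per kilobase, above Efnb2 at 2112.2 ± 276. Efnb3 at 250 ± 34.2 and Efna4 at 233 ± 15.2 overlapped, Efna2 came next at 193 ± 26 without overlap, Efna5 at 37.2 ± 5.34 and Efna1 at 36.2 ± 2.75 overlapped, and Efna3 was lowest at 10.7 ± 1.23 (SD, n = 3 each). The ephrin-B genes Efnb1 and Efnb2 were thus the most abundant ligand transcripts in these cells.

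In differentiating progenitors the order per kilobase began with Efnb1 at 2230.7 ± 314 and Efnb2 at 1568.4 ± 222, followed by Efna4 at 316 to 397 over its libraries, Efnb3 at 259 ± 16.9 and Efna2 at 223 ± 20.3. Efna3 at 49.4 ± 6.22 and Efna5 at 44.3 ± 5.33 overlapped, and Efna1 was lowest at 29.5 ± 8.79. In neurons Efnb2 stood first at 3134.9 ± 568. It was followed by Efnb1 at 994 ± 123, Efnb3 at 800 ± 8.85 and Efna3 at 470 ± 80.9 without overlap. Efna4 at 344 ± 42.8 and Efna2 at 276 ± 48.8 overlapped, and Efna5 at 37.1 ± 0.379 and Efna1 at 31.7 ± 3.32 were lowest.

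The makeup of each class was expressed as shares of its summed level per kilobase, which do not depend on how a library is scaled. Efna3 made up 2.14%, 2.17% and 1.96% of the ephrin-A level in the 3 libraries of proliferating progenitors, 6.83%, 7.55% and 6.79% in differentiating progenitors, then 41.5%, 41.0% and 39.0% in neurons. Efna3 was the smallest ephrin-A share in proliferating progenitors and the largest in neurons. Efna4 held the largest share in both progenitor populations, with means of 45.7% and 50.5%, and 29.8% in neurons. The mean share of Efna2 was 37.7%, 31.9% and 23.7%.

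Within the ephrin-B class, Efnb1 and Efnb2 changed places. Efnb1 made up 59.3% to 64.0% in proliferating progenitors, 53.3% to 55.9% in differentiating progenitors and 19.9% to 20.4% in neurons. The share of Efnb2 was 31.9% to 36.3%, 36.8% to 40.5% and 61.3% to 66.2% in the same order, without overlap. Efnb3 held 3.73% to 4.4%, 5.55% to 7.59% and 13.9% to 18.3%.

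**Figure D3:**
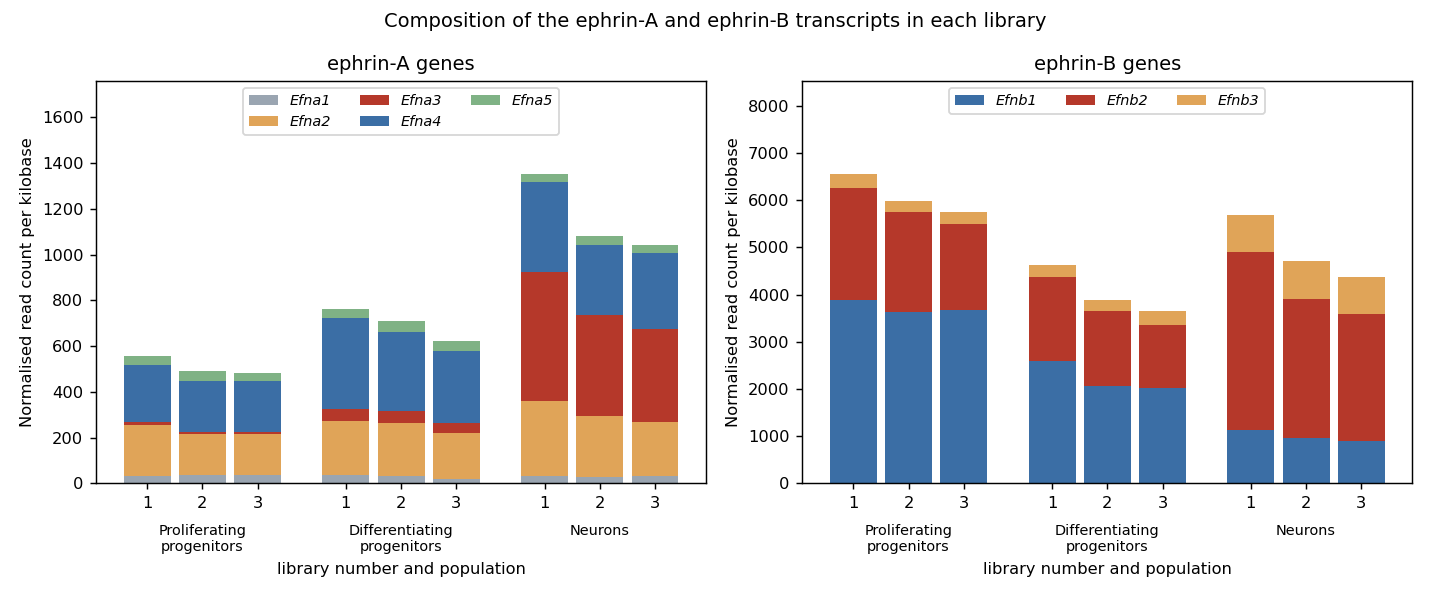
Normalised read count per kilobase (vertical axes, linear and starting at 0) of the ephrin-A and ephrin-B genes, stacked by gene, with one bar for each of the 9 libraries by population. The Efna3 segment grows from a mean of 2.09% to 40.5% of the ephrin-A bar between proliferating progenitors and neurons, and the Efnb1 segment shrinks from 61.3% to 20.2% of the ephrin-B bar.

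Summed over its 5 genes, the ephrin-A level per kilobase was 556, 492 and 481 in proliferating progenitors, 763, 713 and 623 in differentiating progenitors, then 1352.9, 1080.5 and 1043.7 in neurons. The 3 populations did not overlap. Summed over its 3 genes, the ephrin-B level was 6559.3, 5985.0 and 5745.2, then 4635.0, 3895.2 and 3644.4, then 5696.7, 4706.9 and 4384.3. Ephrin-B was lower in every differentiating progenitor and neuron library than in any proliferating progenitor library. The other two populations overlapped, and within each of the 3 replicate numbers the neuron level was above that of differentiating progenitors, also with libraries scaled to their totals. With libraries scaled to their totals, the means were 556, 726 and 1036.1 for ephrin-A and 6655.0, 4213.0 and 4405.5 for ephrin-B, in the same order of populations.

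Efna1, Efna3 and Efna4 are neighbours on chromosome 3, with no other tested protein-coding gene between them in the RefSeq annotation of GRCm38.p6. They gave no call, a rise at both steps and a rise at the first step only. The 250 bases before their annotated starts, on the minus strand, are shown because these adjacent genes of one class differed in their changes. They come from RefSeq on build GRCm38.p6, at chr3:89280952-89281201 for Efna1, chr3:89322940-89323189 for Efna3 and chr3:89338029-89338278 for Efna4. Capitals mark a match to one of the motifs searched.
Efna1: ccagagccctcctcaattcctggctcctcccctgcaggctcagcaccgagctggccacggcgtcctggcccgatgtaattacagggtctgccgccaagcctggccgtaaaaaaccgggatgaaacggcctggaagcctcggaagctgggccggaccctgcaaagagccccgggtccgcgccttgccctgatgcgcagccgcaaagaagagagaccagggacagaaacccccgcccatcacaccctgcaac
Efna3: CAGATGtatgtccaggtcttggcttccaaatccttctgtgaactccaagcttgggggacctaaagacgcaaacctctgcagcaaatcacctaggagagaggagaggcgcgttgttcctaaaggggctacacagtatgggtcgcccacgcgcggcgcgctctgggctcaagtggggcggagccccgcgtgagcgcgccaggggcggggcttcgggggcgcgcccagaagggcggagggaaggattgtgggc
Efna4: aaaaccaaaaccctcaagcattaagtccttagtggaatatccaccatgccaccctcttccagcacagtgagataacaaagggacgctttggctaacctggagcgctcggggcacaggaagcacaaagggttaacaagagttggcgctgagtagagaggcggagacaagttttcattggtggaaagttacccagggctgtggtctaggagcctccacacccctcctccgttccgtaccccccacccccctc

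These windows held 64.8%, 63.6% and 54.4% G or C for Efna1, Efna3 and Efna4, and 16, 19 and 7 CpG dinucleotides. The median of all 32851 RefSeq windows of 250 bases was 52.4% and 6 CpG. The motifs searched on both strands were the E-boxes CAGATG (which reads CATCTG on the opposite strand) and CAGCTG, of the kind bound by proneural factors, and the site GTGGGAA of the Notch effector RBPJ, which reads on the opposite strand as TTCCCAC. They do not overlap each other in the window with a match. CAGATG was found once, at the far end of the Efna3 window, and in 14.4% of all windows, with 13.0% for CAGCTG and 5.42% for GTGGGAA. Of 9 windows covering 7 ligands, 1 held any match, and a match describes letters and not a binding site. Efna1 and Efna3 each have another annotated start, so the start used in these cells is not given by the data.

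The genes flanking this cluster, and 1 lying over it, were read beside the ligands. Dpm3, a subunit of an enzyme that makes mannose donors, lies beyond Efna1 and had means of 241.7, 197.7 and 156, with a lower call from end to end (-0.63 ± 0.22, limma, adjusted p = 0.0302). That call was lost without replicate 1 (adjusted p = 0.0687) or replicate 2 (0.106) of the proliferating progenitors, or without replicate 2 (0.0823) or replicate 3 (0.101) of the neurons. Adam15, a membrane metalloprotease gene beyond Efna4, had means of 392, 304.3 and 732 and rose into neurons (1.24 ± 0.24, adjusted p = 0.00204). With the replicate block, Dpm3 was also lower at the second step (adjusted p = 0.038) and Adam15 at the first (adjusted p = 0.0425). Gm15998, a long non-coding RNA annotated over Efna3, held 7, 12 and 4, then 11, 4 and 4, then 35, 46 and 37, and it rose into neurons too (2.58 ± 0.46, adjusted p = 0.00117). The libraries were strand-specific, but the sources used here do not say whether reads were counted by strand, so reads of Efna3 and Gm15998 may be shared.

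**Figure D4:**
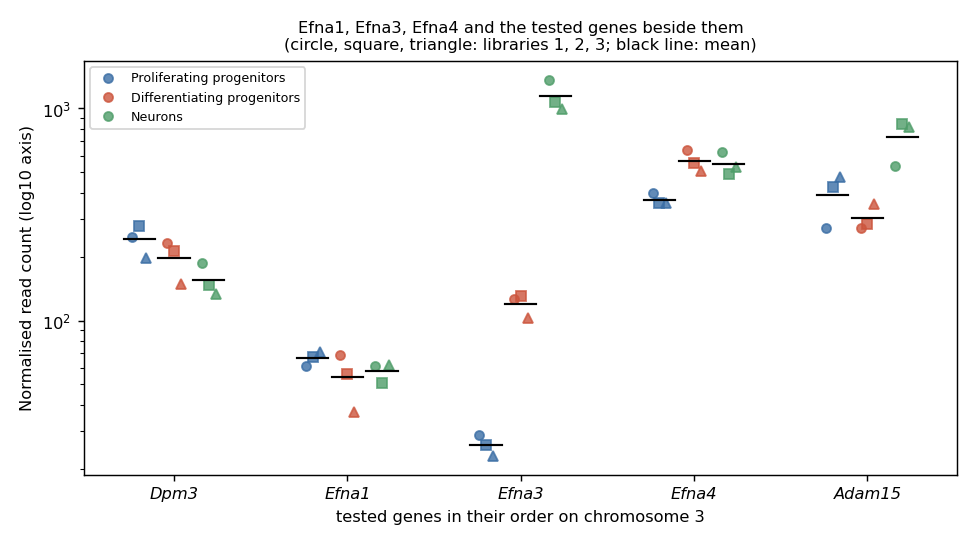
Normalised read count (vertical axis, log10) in each library for the ephrin-A genes of chromosome 3 and the tested protein-coding genes beside them, in their annotated order and not to distance, with colours for populations, symbols for library numbers and lines for the mean. Efna3 runs from 23 to 1367, while Efna1 between its neighbours Dpm3 and Efna3 stays between 37 and 71.

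The nearest tested neighbours of the other ligands gave changes in both directions. Stard8, next to Efnb1 on the X chromosome, fell at both steps as Efnb1 did, from 112, 124 and 100 through 34, 19 and 20 to 0 in all 3 neuron libraries. Pja1, a ubiquitin ligase gene on the other side of Efnb1, rose into neurons (0.60 ± 0.18, limma, adjusted p = 0.0191). That call of Pja1 was lost with total-sum (adjusted p = 0.107) or upper-quartile scaling (0.0567), without replicate 2 (0.0596) or 3 (0.073) of the differentiating progenitors, or without replicate 1 of the neurons (0.0628). With the replicate block Pja1 was also called lower at the first step (adjusted p = 0.00199) and higher from end to end (8.75e-05).

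Beside Efnb2 on chromosome 8, Shcbp1 fell into neurons (-4.86 ± 0.19, limma, adjusted p = 1.18e-07), where Efnb2 rose, and Arglu1 was called in no comparison (adjusted p = 0.19 from end to end, 0.0344 and lower with the replicate block). Beside the uncalled Efna5 on chromosome 17, Nudt12 fell at both steps (-1.28 ± 0.20 and -2.16 ± 0.20, adjusted p = 0.00191 and 1.82e-05), and Fbxl17 rose into neurons (0.84 ± 0.09, adjusted p = 5.21e-05) and, with the block, at the first step (adjusted p = 0.0105). Beside Efna2 on chromosome 10, the RNA-binding protein gene Cirbp was higher in neurons than in proliferating progenitors (1.08 ± 0.18, adjusted p = 0.000515), and with the block it rose at the first step as well (0.00029). Ndufs7, which codes for a subunit of respiratory complex I, was called in no comparison (-0.39 ± 0.24 from end to end, adjusted p = 0.176), and with the block it was lower there (adjusted p = 0.00227) and at the second step (0.0105). Kdm6b, a histone H3K27 demethylase gene next to Efnb3 on chromosome 11, rose at both steps (0.79 ± 0.08 and 0.39 ± 0.08, limma, adjusted p = 0.000144 and 0.00211). Wrap53, on the other side of Efnb3, was lower in neurons than in proliferating progenitors (-0.59 ± 0.14, adjusted p = 0.00468).

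The Eph receptors are the ligands' binding partners. Of 14 receptor genes, 13 were tested, and Epha1 did not pass the filter. At the first step 4 rose, 2 fell and 7 were not called, against 24.9% of all tested genes called, 13.8% higher and 11.1% lower. With the replicate block 5 rose and 2 fell, beside 3793 and 3489 of the 15828 tested genes. At the second step 7 rose, 4 fell and 2 were not called, against 54.0% of all genes, 27.6% higher and 26.4% lower. With libraries scaled to their totals 5 rose and 4 fell, beside 3383 and 5588 of the tested genes. From end to end 9 were higher and 4 lower in neurons, against 63.3% of all genes, 32.2% higher and 31.1% lower. With libraries scaled to their totals 7 were higher and 4 lower, beside 3903 and 6607 of the tested genes. The receptors' median log2 changes were 0.19, 0.30 and 1.19.

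The receptors that rose at the first step were Ephb1, Ephb6, Epha3 and Epha7. Ephb1, which guides axons, held 333 to 366 in proliferating progenitors, 1095 to 1217 in differentiating progenitors and 1891 to 2264 in neurons, and the 3 populations did not overlap. It rose at both steps (1.76 ± 0.10 and 0.81 ± 0.10, limma, adjusted p = 1.13e-05 and 8.01e-05). Ephb6, a receptor without kinase activity, rose from a mean of 377.7 to 1342.7 and 1963.7 (1.82 ± 0.14 and 0.56 ± 0.14, adjusted p = 5.46e-05 and 0.00884), and its second rise was not called with libraries scaled to their totals (adjusted p = 0.0588).

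Epha3, a high-affinity receptor for ephrin-A5, held 1792, 1142 and 1034 in proliferating progenitors, 4829, 6944 and 5522 in differentiating progenitors, then 7634, 6243 and 6390 in neurons. It rose at the first step (2.15 ± 0.21, limma, adjusted p = 0.000145) and overlapped between differentiating progenitors and neurons. Epha7, known to limit cell number in the early cortex, moved from a mean of 1110 to 1457.3 and 1570.7 (0.39 ± 0.09 at the first step, adjusted p = 0.0104).

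Other receptors were highest in neurons. Epha5, an axon guidance receptor for ephrin-A ligands, held 4369, 4360 and 4009, then 4002, 4214 and 3905, then 10393, 9613 and 9579, a rise of 1.29 ± 0.07 at the second step (limma, adjusted p = 8e-07). Epha8 moved from 12, 2 and 6 in differentiating progenitors to 104, 129 and 101 in neurons (4.11 ± 0.53, adjusted p = 0.000145). Epha10 was called there too (2.98 ± 0.64, adjusted p = 0.00348), from 4, 2 and 0 to 28, 13 and 17, values so low that the size of the change is uncertain.

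The receptors that fell included Ephb4, the partner of ephrin-B2 in blood vessels. Ephb4 held 1531, 1614 and 1774 in proliferating progenitors, 1233, 881 and 1003 in differentiating progenitors, then 107, 142 and 124 in neurons, without overlap. It fell at both steps (-0.67 ± 0.15 and -3.05 ± 0.15, limma, adjusted p = 0.0112 and 3.43e-07). Epha2, a receptor for ephrin-A1, held 78, 92 and 98, then 38, 14 and 26, then 2, 1 and 0. Its fall at the first step (-1.84 ± 0.47, adjusted p = 0.0206) was lost without replicate 2 (adjusted p = 0.0651) or replicate 3 (0.0689) of the proliferating progenitors, and without replicate 2 (0.0765) or replicate 3 (0.0556) of the differentiating progenitors.

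Ephb3 and Epha4 fell at the step into neurons. Ephb3, an ephrin-B receptor, had means of 821, 659.7 and 204 (-1.69 ± 0.14 at the second step, limma, adjusted p = 9.29e-06). Epha4, which binds ligands of both classes, held 11784, 12840 and 11855, then 13609, 14308 and 13295, then 8351, 6728 and 6399, and changed by -0.95 ± 0.11 at the second step (limma, adjusted p = 5.49e-05). Epha4 was high in all 3 populations and its neuron libraries lay below all progenitor libraries.

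**Figure D5:**
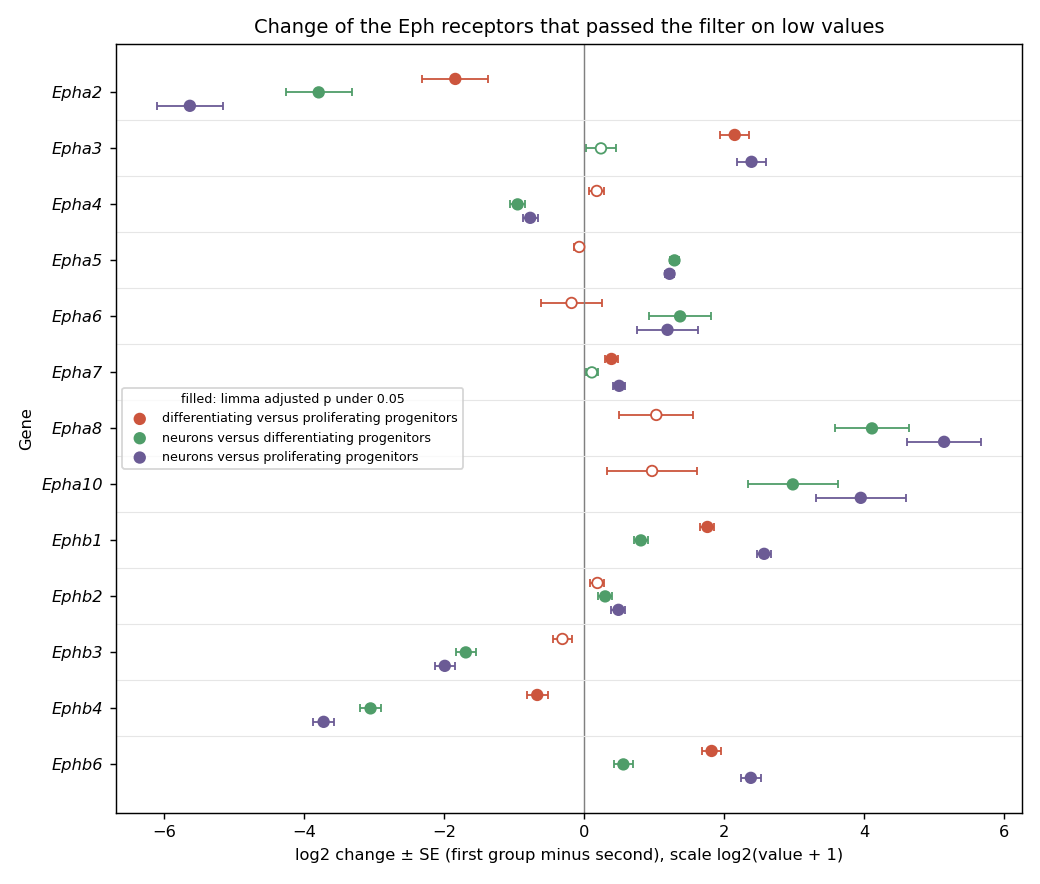
Log2 change (horizontal axis) of the 13 tested Eph receptor genes in the 3 comparisons, with bars for the SE and filled symbols for calls at an adjusted p under 0.05. Epha2 and Ephb4 lie farthest to the left from end to end at -5.63 and -3.72.

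Summed markers of other cell types in the dissected tissue were lower where Efnb1, Ephb4 and Epha2 fell. Those of endothelial and mural cells (16 genes) summed to 825 to 1881 in proliferating progenitors, 413 to 459 in differentiating progenitors and 112 to 162 in neurons, where Emcn and Des were at 0. Of 13 tested, 7 were lower at the first step, 4 at the second and 12 from end to end. Among all tested genes, 11.1%, 26.4% and 31.1% were lower in the same order. With the replicate block, 11 and 7 were lower at the 2 steps, beside 3489 and 5620 of the 15828 tested genes. With replicates 2 and 3 alone, 4 were lower and 3 higher at the second step, beside 4703 and 4857 of the tested genes. Markers of meninges, which had been removed before sorting (6 genes in the table), summed to 222, 729 and 2955 in the 3 libraries of proliferating progenitors. The sums were 79 to 155 in differentiating progenitors, with Lum at 0, and 11 to 48 in neurons, with Foxd1 at 0. Of 4 tested, 3 were lower at the first step, 2 at the second and 4 from end to end, against the same shares of all tested genes. The first-step count was 0 without replicate 2 of the differentiating progenitors. It was 1 without replicate 3 of that population, or without replicate 2 or 3 of the proliferating progenitors. The part of these cells in the falls of Efnb1, Ephb4 and Epha2 was not tested. Efnb2 had its highest level in neurons, where the endothelial sum was lowest. Its mean was also higher in proliferating progenitors (10117.7), where that sum was highest, than in differentiating progenitors (7512.7). That difference was not called in the main fit, although the libraries did not overlap. The alternatives given above called it, among them the replicate block (limma, adjusted p = 8.26e-05). The part of these cells in the level of Efnb2 was not tested. Red blood cell transcripts (9 genes) summed to 102728 to 256033 in proliferating progenitors and to no more than 2046 elsewhere.

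Summed markers of other neuron types were highest in neurons, as were Efna3, Efnb2 and Efnb3. Interneuron and ventral lineage markers (10 genes) summed to 91 to 1013 in proliferating progenitors, 452 to 2930 in differentiating progenitors and 8133 to 9519 in neurons, although ganglionic eminences had been removed. Of 9 tested, 1 rose at the first step and 7 at the second, against 13.8% and 27.6% of all tested genes. With the replicate block 4 and 9 rose, beside 3793 and 5661 of the 15828 tested genes. The first-step count was 0 with only the groups compared, with no intensity trend and without some single libraries. Cajal-Retzius markers (7 genes) summed to 94 to 140, 1434 to 1786 and 18459 to 21152. All 7 rose at the first step. At the second, 6 rose and 1 fell, against 27.6% and 26.4% of all tested genes. The part of these cells in the rises of Efna3, Efnb2 and Efnb3 was not tested.

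Genes that process or relay ephrin and Eph signals were counted on a list of 42, all tested. At the first step 11 rose and 2 fell, against 13.8% and 11.1% of all tested genes, with 18 and 8 under the replicate block and 10 and 5 with libraries scaled to their totals. At the second step 22 rose and 8 fell, against 27.6% and 26.4% of all genes, with 29 and 11 under the block and 15 and 11 after that scaling. From end to end 26 were higher and 7 lower in neurons, against 32.2% and 31.1% of all genes, with 28 and 11 under the block and 19 and 14 after that scaling. Of all 15828 tested genes, the block called 3793 higher and 3489 lower at the first step and 5661 and 5620 at the second. From end to end it called 6129 and 6245. After total-sum scaling those counts were 1885 and 2255, then 3383 and 5588, and 3903 and 6607 from end to end. The shares of all genes above are those of the main fit. The list's median log2 changes were 0.13, 0.32 and 0.54.

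Partners of the ephrin-B tail moved in both directions at the step into neurons. Grip2, a PDZ scaffold that binds it, held 13, 20 and 18 in differentiating progenitors against 629, 902 and 754 in neurons (5.41 ± 0.24, limma, adjusted p = 2.07e-07). Rgs3, whose PDZ isoform binds the same tail and restrains G proteins, held 892, 1071 and 1258 in differentiating progenitors against 76, 80 and 77 in neurons (-3.76 ± 0.17, adjusted p = 2.46e-07). The table gives one value per gene, so the PDZ isoform of Rgs3 cannot be told apart from the others. Ptpro, a phosphatase that acts on Eph receptors, rose at both steps, from a mean of 58.7 to 211 and 3567 (adjusted p = 0.00032 and 4.43e-07).

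Relays of receptor signals were also called. Anks1, an adaptor of Eph receptors, rose from 1365.7 to 2558 at the first step (0.91 ± 0.07, limma, adjusted p = 6.12e-05), and Chn2, a Rac GTPase-activating protein, from 275 to 1074 (1.95 ± 0.19, adjusted p = 0.000137). The kinase gene Pak1 rose at both steps, from 781.7 to 1397.3 and 4671.3 (adjusted p = 0.00068 and 1.32e-06). Itsn1, an exchange factor downstream of EphB2, rose into neurons from 4095.3 to 17185.3 (2.07 ± 0.11, adjusted p = 4.44e-07).

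Among those that fell, Inppl1, a lipid phosphatase that binds EphA2, dropped at the step into neurons from 4176, 5140 and 5046 to 706, 682 and 703 (-2.77 ± 0.11, limma, adjusted p = 1.34e-07). The adaptor gene Nck1 (adjusted p = 3.22e-06) and the Src-family kinase gene Yes1 (adjusted p = 7.24e-06) fell there as well. Nck1 and Yes1 were also the 2 genes called lower at the first step, with adjusted p-values of 0.0273 and 0.0201. The call of Nck1 there was lost without replicate 1 (adjusted p = 0.0781) or 2 (0.0906) of the proliferating progenitors or replicate 2 (0.0628) or 3 (0.103) of the differentiating progenitors. That of Yes1 was lost without replicate 2 of the proliferating progenitors (0.0814) or replicate 3 of the differentiating progenitors (0.0764).

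The genes most like each called ligand were taken by Pearson's r of log2 values over the 9 libraries, as a description. The libraries fall into 3 populations, so any gene with a like order of population means scores highly. Efna3 was closest to Hist3h2a (0.999), Cnr1 (0.999) and Wbscr17 (0.998), and 1334 genes had an r above 0.95 with it. For Efnb1 the closest were Epdr1 (0.999), Gm13111 (0.997) and 2310015A10Rik (0.997), with 1107 such genes. Efnb3 was nearest to Fam55c (0.998), Lrrtm1 (0.997) and Drd1a (0.996), with 1144.

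Fewer genes followed the other 3 called ligands. Efnb2, low in differentiating progenitors, was nearest to Keap1 (0.982), Ndn (0.979) and Amigo1 (0.978), with 78 genes above 0.95. Efna4 was nearest to Homer2 (0.986), Amot (0.977) and Mex3a (0.974), with 26. Efna2 was nearest to AC132303.1 (0.97), Rlf (0.968) and Sssca1 (0.967), with 25.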

How the data were processed

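Poly-A RNA of 9 sorted-cell libraries was sequenced. The submitters' processing notes name build mm9 and, with no step given, the tools DESeq 1.8.1, bedtools 2.11, CASAVA 1.8.0 and BWA. Per the file headers, the deposited table gives a normalised read count for each of 21210 genes (Ensembl 61). The authors' values are a score of whole numbers, not raw counts, so no count model was fitted. The authors also deposited folds as a ratio of group means, an adjusted p-value per comparison and the gene length. Reads behind the values, estimated from which whole numbers occur, ran from about 12700000 to 27600000 per library.

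The values were analysed as log2(value + 1) in R 4.3.3 by limma-trend (limma 3.58.1), 1 mean for each of the 3 groups over all 9 libraries, which leaves 6 residual degrees of freedom. The filter asked for a value of 10 or more in 3 or more libraries and left 15828 genes, with Benjamini-Hochberg adjustment and a threshold of 0.05. Over all genes, log2 changes had a median SE of 0.18. The p-values of the main fit rest on the spread between pools of embryos within a group, and same-numbered libraries are not paired in it. The script was tested on simulated data. Python 3.11.15, numpy 2.4.6, pandas 2.3.3, scipy 1.17.1 and matplotlib 3.10.9 did the rest.

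Labels put libraries into groups. Same-numbered libraries deviated together from their group means (9 pairs, r from 0.507 to 0.767, against -0.64 to 0.428 for 18 other pairs). Among the other pairs, replicate 1 against 2 or 3 gave -0.64 to -0.545, and replicate 2 against 3 gave 0.272 to 0.428. Replicate 1 thus stood apart, and the numbers separated replicates 2 and 3 less clearly. A fit with the replicate number as a block is given where it changed the call of a ligand or of a neighbouring gene. It is also given where it changed the count of a list by over 1.5 times, and for some smaller moves.

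The members, lists and tests were chosen with earlier results of these data known. Named are all 8 ligands, up to 4 receptors and 4 signalling genes per direction and comparison by smallest adjusted p, the 3 genes most like each called ligand, and the nearest tested gene on each side of a ligand. Overlapping Gm15998 was named after its values were seen, as were Emcn and Des. Promoter letters and gene order come from RefSeq on GRCm38.p6, and no coordinates of the mm9 files were used. Alternatives were another pseudocount, no filter, total-sum and upper-quartile scaling, only the groups compared, the replicate block, replicates 2 and 3 alone, no intensity trend and leaving out each library.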

Additional observations from a re-analysis of the deposited data

How the results depend on the processing

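Of the 24 ligand comparisons, 18 kept their side of the threshold under all 17 alternatives, among them every comparison of Efna3, Efnb1 and Efnb3. Of these 18, 14 kept their sign as well, and the other 4, none of them called, changed sign: Efnb3 at the first step (-0.02 to 0.17), Efna1 (-0.1 to 0.34) and Efna4 (-0.25 to 0.05) at the second, and Efna5 from end to end (-0.28 to 0.11). The count of ligands called lower at the first step was 1, and it was 2 (Efnb1 and Efnb2) with total-sum scaling, the replicate block or replicates 2 and 3 alone, and 1 to 2 with single libraries left out. With total-sum scaling 2 ligands were lower at the second step (Efna5 and Efnb1), and from end to end 2 were higher (Efna3 and Efnb3), against 3 (Efna3, Efna4 and Efnb3) with upper-quartile scaling and 5 in the main analysis. Scaling moves all genes of a library by about the same log2 amount. The end-to-end changes of Efna2, Efna4 and Efnb2 were 0.51, 0.56 and 0.56 as deposited, and 0.22, 0.27 and 0.27 with total-sum scaling. Why the library totals differed between the populations was not tested. Total-sum scaling moved the median log2 change of all genes by -0.073, -0.214 and -0.287 in the 3 comparisons, so a ligand change is best read relative to it. It gave 1885 higher and 2255 lower calls at the first step, 3383 and 5588 at the second and 3903 and 6607 from end to end, in place of 2186 and 1758, 4368 and 4183, and 5099 and 4924. Upper-quartile scaling gave 4519 and 5695 from end to end. The replicate block called 7282 genes at the first step in place of 3944, and it changed no ligand call other than those of Efnb2 at the first step and Efna2 at the second. With single libraries left out, 2661 to 4063, 7604 to 8717 and 9178 to 10216 genes were called. Adam10, the main sheddase of ephrins, named because its sign changed, had an end-to-end change of 0.11 ± 0.08 that was -0.18 with total-sum scaling (limma, adjusted p = 0.0495). Low values limit the precision of Efna1 (38 estimated reads or more per library) and Efna3 in progenitors (21 or more), and of Epha2, Epha6, Epha8, Epha10 and Gm15998.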

Other observations

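The first replicate had the highest normalised read count of its group in all 3 populations for 4 of the 8 ligands, Efna2, Efna4, Efnb1 and Efnb2, and for 20.9% of all tested genes. For Efnb2 it was 1.21, 1.22 and 1.34 times the mean of the other two libraries in proliferating progenitors, differentiating progenitors and neurons. Without the first replicates the summed ephrin-B level per kilobase was 5865.1, 3769.8 and 4545.6 in the 3 populations, and the ephrin-A level was 487, 668 and 1062.1.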
